A study of Homo sapiens with 12 samples.

Results

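The genes described here are the transcription factors, stress effectors and metabolic genes of the ATF4 pathway together with the cytosolic aminoacyl-tRNA synthetases. They were taken by name, with no cut on a measured value but with earlier results of these data known: 40 symbols in all, all 40 of which were listed among the 13951 genes of the deposited files. By role they are 7 transcription factors and cofactors, 6 stress effectors, 3 genes that set eIF2 alpha phosphorylation, 7 enzymes of serine synthesis and mitochondrial one-carbon metabolism, 4 enzymes of asparagine, proline and alanine synthesis, and 13 synthetases, which the files list under their older symbols (AARS for AARS1).

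Poly-A RNA was sequenced from CWR22Rv1, an established human prostate carcinoma line grown out of a xenograft that relapsed after castration, in 4 groups of 3 libraries. Control cells expressed Cas9 from an EF1a promoter with no guide RNA. LV-MEIS1 cells carried a lentivirus expressing MEIS1, a homeodomain cofactor of HOX proteins, and their label names no Cas9. HOXB13ko cells expressed Cas9 from an EF1a promoter, received a guide against HOXB13 and were recombined into a single pool from clones grown after limiting dilution. HOXB13ko-LV-MEIS1 cells were that pool infected with the MEIS1 lentivirus. All lines were kept in puromycin and harvested after 48 h in culture. The comparisons ask how the genes differ with MEIS1, with the HOXB13 knockout and with both. Each group is a single line or pool, so the 3 libraries give the spread between samples of that line, which may be technical, and the named change cannot be told apart from other differences between lines, such as Cas9, cloning or the lentiviral vector.

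MEIS1 stood at 4.05 to 4.45 CPM (reads of a gene scaled to the total of its library) in Control, 45.8 to 49.6 in LV-MEIS1, 3.42 to 3.65 in HOXB13ko and 29.4 to 30.1 in HOXB13ko-LV-MEIS1. HOXB13 mRNA was not lower in the libraries labelled HOXB13ko: it stood at 185 to 215 CPM in Control, 150.1 to 152 in LV-MEIS1, 307 to 347 in HOXB13ko and 326 to 375 in HOXB13ko-LV-MEIS1. The mRNA thus does not show the knockout, and no value here measures the protein. The study itself reported the loss of HOXB13 protein in the knockout cells from western blots. The libraries are called those labelled HOXB13ko where a direction is drawn from them. HOXB13ko and HOXB13ko-LV-MEIS1 are label names throughout, and their 6 libraries together are called the HOXB13ko-labelled libraries. The 10 luminal prostate markers checked were all listed, with a summed level of 3780 to 3810 CPM in Control, 2570 to 2610 in LV-MEIS1 and 3900 to 4020 in the 6 HOXB13ko-labelled libraries. None of 3 basal and none of 5 leukocyte or endothelial markers was listed, and 3 of 6 fibroblast and smooth muscle markers summed to 23.4 to 27.0 CPM in Control, 34.9 to 41.0 in LV-MEIS1 and 28.6 to 34.9 in the 6 HOXB13ko-labelled libraries. In LV-MEIS1 against Control, the higher stromal sum came from COL1A1 (1.15 on the log2 scale), with ACTA2 and PDGFRB lower (-0.62 and -1.28). The lower luminal and higher stromal sums go with the LV-MEIS1 values below, and their part in them was not tested. The smallest steps between low values gave 1.72e+07 to 2.87e+07 reads per library, at which 3 reads are worth 0.105 to 0.175 CPM, and all 40 genes lay above that floor in all 12 libraries.

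ATF4 is the factor at the end of the integrated stress response. Kinases that sense misfolded protein (EIF2AK3, known as PERK) or uncharged tRNA (EIF2AK4, known as GCN2) phosphorylate eIF2 alpha, which lowers general translation but favours translation of the ATF4 mRNA, so ATF4 activity is set largely by translation and its mRNA is an incomplete measure of it. ATF4 pairs with C/EBP factors such as CEBPG on composite elements and raises genes for amino acid synthesis, transport and tRNA charging, as well as feedback genes such as TRIB3 and DDIT3 (CHOP).

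Promoter sequence was available from RefSeq (GRCh38.p14, 250 bases before to 50 after each gene's start) for 30 of the 40 genes. The core of the ATF4-C/EBP element, searched as TGATGNAA on both strands, occurred in 10 of these 30 promoters (33.3%), against 1.61% of the 10661 promoters of listed genes and 3.67% of all 27305 promoters in the table. The 10 genes were ATF3, CHAC1, MTHFD1L, ASNS and the synthetase genes AARS, CARS, IARS, MARS, NARS and TARS. The following 30-base windows are shown for holders whose mRNA differed between the libraries labelled HOXB13ko and Control, 5 of them higher (CHAC1, ASNS, AARS, IARS, TARS) and MTHFD1L lower. They are written 5′ to 3′ on the gene's own strand with the match in capitals, and TTGCATCA is the same element read on the other strand.
CHAC1 (chr15:40953251-40953280, plus strand): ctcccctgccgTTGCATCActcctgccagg
ASNS (chr7:97872458-97872487, minus strand): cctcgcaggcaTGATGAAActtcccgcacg
AARS (chr16:70289675-70289704, minus strand): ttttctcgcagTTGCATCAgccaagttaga
IARS (chr9:92293692-92293721, minus strand): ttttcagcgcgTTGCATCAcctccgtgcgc
TARS (chr5:33440956-33440985, plus strand): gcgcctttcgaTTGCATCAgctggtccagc
MTHFD1L (chr6:150866346-150866375, plus strand): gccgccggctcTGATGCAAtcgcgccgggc

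Other elements were searched on both strands in the same promoters. The cAMP response element TGACGTCA occurred in 1 of the 30 promoters, that of PPP1R15A (3.33%, against 3.1% of promoters of listed genes), and the MEIS core TGACAG in 6 (20%, against 13.3%). The ER stress element, through which ATF6 acts on chaperone genes, was in 0 of 30. The same element was in 6 of 21 promoters of the chaperone and unfolded protein response list given further on (28.6%, against 0.131%), among them HSPA5 and XBP1, which are shown for contrast with the element in capitals.
HSPA5 (chr9:125241385-125241414, minus strand): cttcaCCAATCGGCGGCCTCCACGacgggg
XBP1 (chr22:28800597-28800626, minus strand): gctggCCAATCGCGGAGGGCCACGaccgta
A match of letters is a description and not a measured binding site. In the libraries labelled HOXB13ko against Control, the median log2 fold change was 0.15 over the 10 genes with TGATGNAA and 0.16 over the 20 without it, and between the lines with MEIS1 (HOXB13ko-LV-MEIS1 against LV-MEIS1) it was 0.21 and 0.33. In LV-MEIS1 against Control it was -0.055 and -0.13. There 1 of the 10 and 9 of the 20 passed the test described below as lower (21.3% of all genes), and 0 and 3 as higher (23.2%). For the difference of the MEIS1 effects, given further on, the medians were -0.06 and -0.25, with 1 of 10 and 10 of 20 below 0. Genes with and without the core were not compared by a test.

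Differences were fitted on log2(CPM + 0.5) with limma over all 12 libraries. In what follows a gene rose or fell if it passed limma's moderated test (Benjamini-Hochberg adjusted p under 0.05 over all 13951 genes), and it lay beyond 1.5-fold if it also passed limma's treat test against a change of 1.5-fold, the kind of test the study used. Each log2 fold change is given ± SE and is slightly compressed for genes of low CPM by the added 0.5.

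Against Control, LV-MEIS1 libraries held lower levels of many of these genes: 16 of 40 fell and 3 rose. Over all genes 21.3% fell and 23.2% rose, and the median log2 fold change was -0.12 over the 40 genes and 0.007 over all genes. Transcription factors (4 of 7 fell), stress effectors (3 of 6 fell, 1 rose), serine and one-carbon enzymes (3 of 7 fell), asparagine, proline and alanine enzymes (2 of 4 fell) and synthetases (4 of 13 fell, 1 rose) all had more genes that fell than rose. Of the 3 eIF2 alpha genes, 1 rose. The lowest fold change was that of EIF4EBP1 and the highest that of VLDLR. None of the 40 passed treat (1 at an unadjusted p under 0.05), against 2.24% of all genes lower and 1.75% higher. The 3 libraries of each group did not overlap for 17 genes lower and 5 higher, against 25.1% and 26.3% of all genes. The 3 that rose became 1 without LV-MEIS1 replicate 2. In bulk RNA, fewer cells of a type and less RNA per cell cannot be told apart.

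The libraries labelled HOXB13ko went mostly the other way against Control: 18 of the 40 genes rose and 3 fell, against 16.5% and 16.4% of all genes. The median log2 fold change was 0.14 over the 40 genes and -0.002 over all genes. The synthetases held 7 of the 18 that rose, with 7 of 13 risen and 0 fallen (8 at an unadjusted p under 0.05 in either direction). Of the factors 2 of 7 rose, of the effectors 3 of 6 rose and 1 fell, of the eIF2 alpha genes 2 of 3 rose, of the serine and one-carbon enzymes 3 of 7 rose and 2 fell, and of the remaining enzymes 1 of 4 rose. None passed treat (0 at an unadjusted p under 0.05), against 0.652% of all genes higher and 0.760% lower. Libraries did not overlap for 21 genes higher and 4 lower, against 21.8% and 23.1%. The 18 became 11 without HOXB13ko replicate 3, and the 3 that fell became 1 without Control replicate 2 or HOXB13ko replicate 3.

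When MEIS1 was added to the libraries labelled HOXB13ko (HOXB13ko-LV-MEIS1 against HOXB13ko), 0 of the 40 genes passed limma's test. An unadjusted p under 0.05 was found for 6 of the 40, against 2070 of all 13951 genes, a similar share. This comparison called few genes anywhere, 0.0215% of all genes higher and 0.0287% lower (0.00717% higher beyond 1.5-fold), although MEIS1 itself rose by 2.90 ± 0.075. The lowest adjusted p among the 40 was 0.205. The 95% interval lay within 1.5-fold in both directions for 38 of the 40, and the widest bounds were 0.59 for PHGDH and -0.59 for CARS. The median log2 fold change was 0.069, against 0.006 over all genes, and 35 of the 40 estimates were above 0, against 7234 of all 13951 genes. Libraries did not overlap for 6 genes higher and 0 lower, against 10.6% in each direction.

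The largest differences lay between the 2 lines that carry MEIS1. In HOXB13ko-LV-MEIS1 against LV-MEIS1, 27 of the 40 genes rose and 3 fell, against 24.0% and 26.1% of all genes, with a median log2 fold change of 0.31 against -0.020. All role groups had more genes that rose than fell: 6 of 7 factors, 4 of 6 effectors, 2 of 3 eIF2 alpha genes, 4 of 7 serine and one-carbon enzymes, 3 of 4 remaining enzymes and 8 of 13 synthetases. DDIT4, PSPH and ALDH1L2 lay beyond 1.5-fold (3 of 40, against 3.29% of all genes higher and 3.42% lower). Libraries did not overlap for 29 genes higher and 4 lower, against 28.2% and 30.1%. The 3 that fell were VLDLR, PPP1R15A and MTHFD1L.

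**Figure D1:**
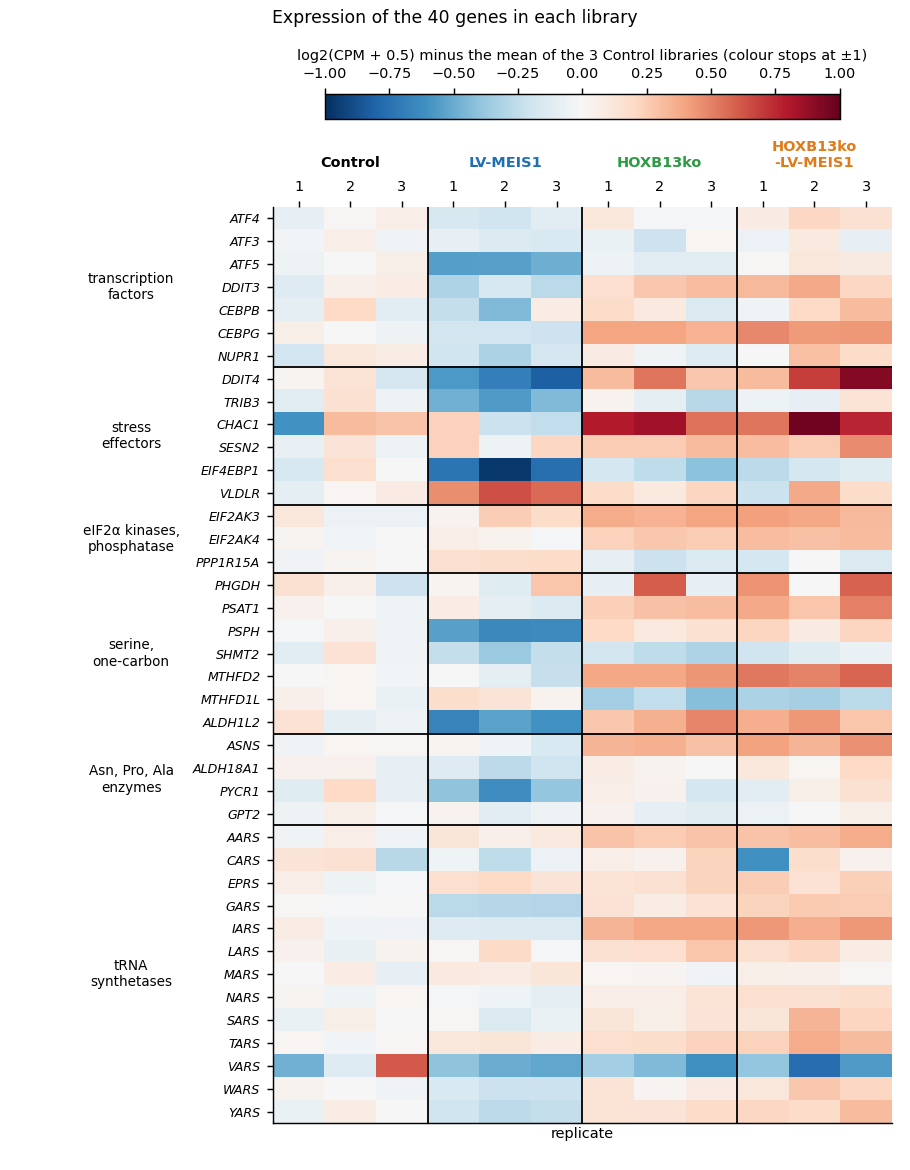
Heat map of log2(CPM + 0.5) for each of the 40 genes (rows, by role) in each of the 12 libraries (columns, by group and replicate), minus the mean of the 3 Control libraries of that gene; red is higher, blue is lower and colour stops at 1. Blue runs through much of the LV-MEIS1 columns, deepest in EIF4EBP1, DDIT4, PSPH and ALDH1L2, and red through most rows of the 6 HOXB13ko-labelled columns, where VARS, MTHFD1L, EIF4EBP1, SHMT2 and PPP1R15A are on average blue in both groups.

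Among the transcription factors, ATF4 itself moved little. The gene lies at chr22:39519695-39522683 on the plus strand of GRCh38. ATF4 stood at 252, 268 and 278 CPM in Control, 238, 231 and 247 in LV-MEIS1, 286, 263 and 262 in HOXB13ko and 282, 307 and 296 in HOXB13ko-LV-MEIS1. All 3 LV-MEIS1 libraries lay below the lowest Control library and all 3 HOXB13ko-LV-MEIS1 libraries above the highest, while HOXB13ko overlapped Control. In the fit, the log2 fold change was -0.16 ± 0.054, adjusted p = 0.0315 for LV-MEIS1 and 0.024 ± 0.054, adjusted p = 0.767 for HOXB13ko, each against Control, and 0.31 ± 0.054, adjusted p = 0.000325 between the lines with MEIS1. The fall in LV-MEIS1 is small, 1.11-fold, and the call was lost without Control replicate 2 or 3 or LV-MEIS1 replicate 1 or 2, with an adjusted p of up to 0.125.

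CEBPG stood at 73.0, 70.0 and 67.6 CPM in Control, 61.7, 61.3 and 60.6 in LV-MEIS1, 92.6, 92.4 and 89.4 in HOXB13ko and 97.9, 94.5 and 94.8 in HOXB13ko-LV-MEIS1. CEBPG encodes a C/EBP partner of ATF4, and its 4 groups did not overlap at all, in the order LV-MEIS1, Control, HOXB13ko, HOXB13ko-LV-MEIS1. Limma gave a log2 fold change of -0.20 ± 0.046, adjusted p = 0.00333 in LV-MEIS1 and 0.38 ± 0.046, adjusted p = 3.51e-05 in HOXB13ko, each against Control, and 0.64 ± 0.046, adjusted p = 3.72e-08 between the lines with MEIS1. The last step, HOXB13ko-LV-MEIS1 against HOXB13ko, was 0.065 ± 0.046, adjusted p = 0.534 and did not pass.

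DDIT3 stood at 35.7, 40.4 and 41.1 CPM in Control, 31.3, 34.8 and 32.2 in LV-MEIS1, 43.97, 47.0 and 48.4 in HOXB13ko and 48.9, 50.7 and 45.1 in HOXB13ko-LV-MEIS1. DDIT3 encodes CHOP, a C/EBP factor linked to death under prolonged stress, and its LV-MEIS1 libraries lay below and both sets of HOXB13ko-labelled libraries above all Control libraries. On the log2 scale, the difference was -0.25 ± 0.071, adjusted p = 0.0115 in LV-MEIS1, 0.25 ± 0.071, adjusted p = 0.0163 in HOXB13ko, each against Control, and 0.55 ± 0.071, adjusted p = 1.77e-05 between the lines with MEIS1. The first call was lost without Control replicate 3 (adjusted p = 0.0531) and the second without Control replicate 1 or HOXB13ko replicate 2 or 3 (up to 0.0708).

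ATF5 stood at 51.2, 52.9 and 55.5 CPM in Control, 36.0, 36.3 and 37.8 in LV-MEIS1, 51.2, 49.5 and 49.1 in HOXB13ko and 53.4, 57.5 and 56.6 in HOXB13ko-LV-MEIS1. ATF5, a relative of ATF4 that is also controlled at translation, was low in LV-MEIS1 alone, where no library reached the lowest of the other 9. The fitted log2 difference was -0.53 ± 0.054, adjusted p = 2.35e-06 in LV-MEIS1 and -0.090 ± 0.054, adjusted p = 0.213 in HOXB13ko, each against Control, and 0.60 ± 0.054, adjusted p = 3.88e-07 between the lines with MEIS1. Reads of ATF5 and DDIT3 cannot be told apart by strand from those of NUP62 and MBD6, listed genes whose exons overlap theirs on the other strand.

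NUPR1 stood at 55.7, 69.2 and 67.4 CPM in Control, 55.6, 51.2 and 56.9 in LV-MEIS1, 67.5, 62.1 and 58.4 in HOXB13ko and 64.1, 78.9 and 72.5 in HOXB13ko-LV-MEIS1. NUPR1, a stress-induced chromatin cofactor, overlapped between LV-MEIS1 and Control and rose between the lines with MEIS1 (0.39 ± 0.090, adjusted p = 0.00241), against -0.23 ± 0.090, adjusted p = 0.0545 for LV-MEIS1 against Control. CEBPB ranged from 22.0 to 37.5 CPM and rose in that same comparison (0.36 ± 0.13, adjusted p = 0.0336), a call lost without any 1 of LV-MEIS1 replicates 1 and 2 and HOXB13ko-LV-MEIS1 replicates 2 and 3 (up to 0.156). ATF3, the stress-inducible repressor, ranged from 17.9 to 22.2 CPM and passed in no comparison, with log2 fold changes of -0.12, -0.085, 0.071 and 0.11 in the 4 comparisons in the order given above.

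**Figure D2:**
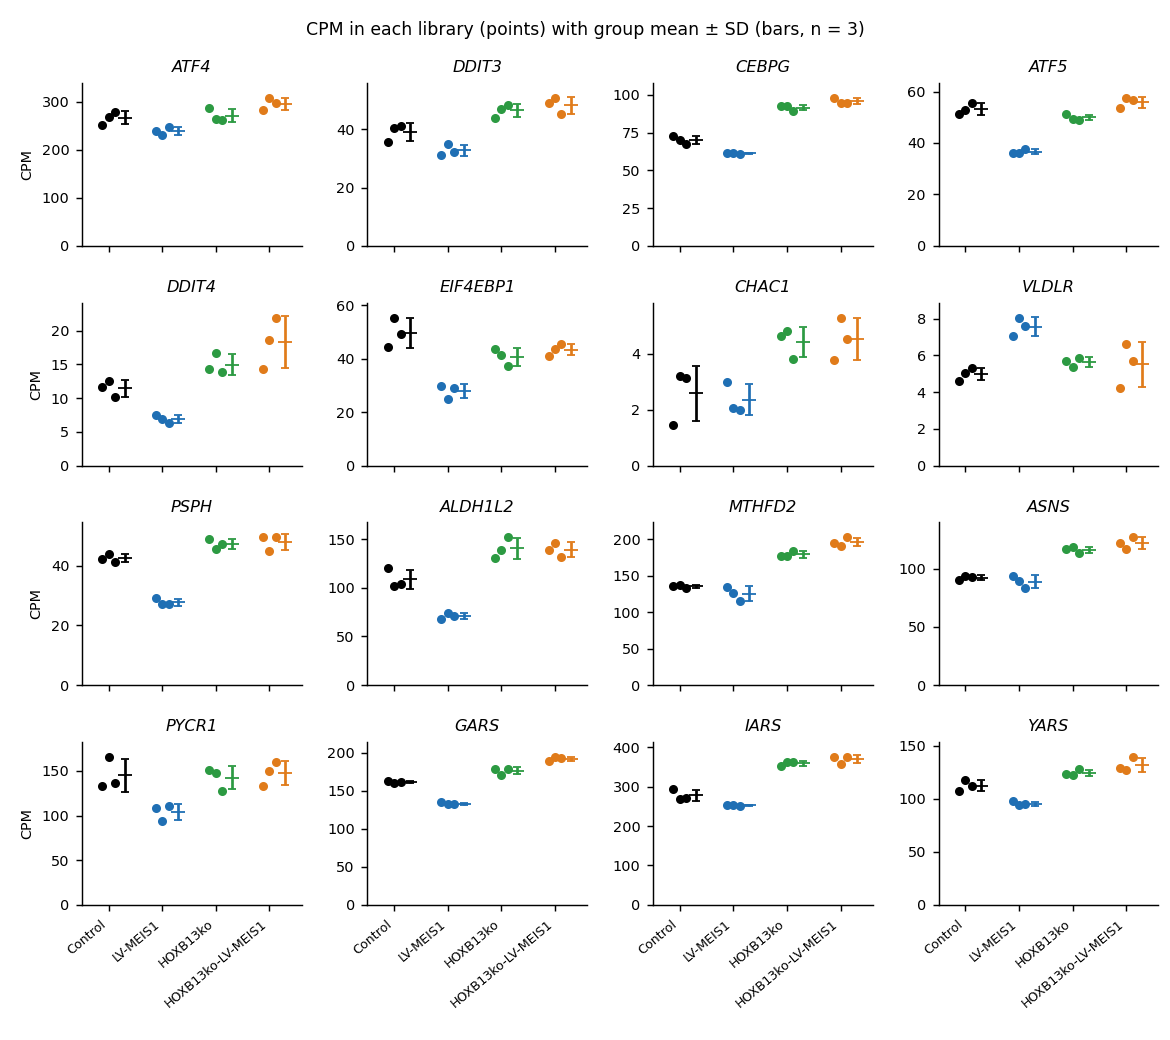
CPM (vertical axis, from 0) of 16 of the genes in each library, as points by group, with the group mean ± SD beside them (n = 3). LV-MEIS1 (blue) is the lowest group for DDIT4, EIF4EBP1, PSPH, ALDH1L2, ATF5 and GARS, without overlap, and the highest for VLDLR, while MTHFD2, ASNS and IARS are higher in both HOXB13ko-labelled groups than in the other groups.

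The stress effectors held the largest fold changes. DDIT4 stood at 11.6, 12.6 and 10.1 CPM in Control, 7.49, 6.88 and 6.26 in LV-MEIS1, 14.3, 16.7 and 13.8 in HOXB13ko and 14.3, 18.7 and 21.9 in HOXB13ko-LV-MEIS1. DDIT4, also called REDD1, restrains mTORC1; its LV-MEIS1 libraries lay below and all 6 HOXB13ko-labelled libraries above the Control libraries, with HOXB13ko-LV-MEIS1 replicate 3 the highest. In log2 units it differed by -0.69 ± 0.14, adjusted p = 0.000942 in LV-MEIS1, 0.37 ± 0.14, adjusted p = 0.0485 in HOXB13ko, each against Control, and 1.33 ± 0.14, adjusted p = 1.58e-06 between the lines with MEIS1, a 2.52-fold difference and beyond 1.5-fold. The HOXB13ko call lay at the threshold and was lost when any library other than HOXB13ko-LV-MEIS1 replicate 1 or 3 was left out (up to 0.175).

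EIF4EBP1 stood at 44.2, 55.3 and 49.2 CPM in Control, 29.6, 25.03 and 29.1 in LV-MEIS1, 43.8, 41.3 and 37.1 in HOXB13ko and 41.1, 43.7 and 45.3 in HOXB13ko-LV-MEIS1. EIF4EBP1 encodes 4E-BP1, which holds back cap-dependent translation, and LV-MEIS1 lay below every other library while HOXB13ko lay below Control. In the fit, the log2 fold change was -0.82 ± 0.090, adjusted p = 5.25e-06 in LV-MEIS1 (1.76-fold lower), -0.28 ± 0.090, adjusted p = 0.0286 in HOXB13ko, each against Control, and 0.63 ± 0.090, adjusted p = 4.4e-05 between the lines with MEIS1. The HOXB13ko call was lost without Control replicate 2 or 3 or HOXB13ko replicate 2 or 3 (up to 0.136).

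TRIB3 stood at 358, 427 and 372 CPM in Control, 276, 260.0 and 282 in LV-MEIS1, 395, 362 and 317 in HOXB13ko and 371, 363 and 422 in HOXB13ko-LV-MEIS1. TRIB3, a pseudokinase that feeds back on ATF4, was low in LV-MEIS1 without overlap and mixed among the other groups. Limma gave a log2 fold change of -0.50 ± 0.084, adjusted p = 0.000276 in LV-MEIS1 and -0.11 ± 0.084, adjusted p = 0.334 in HOXB13ko, each against Control, and 0.50 ± 0.084, adjusted p = 2e-04 between the lines with MEIS1.

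CHAC1 stood at 1.45, 3.20 and 3.12 CPM in Control, 2.99, 2.06 and 2.00 in LV-MEIS1, 4.65, 4.82 and 3.82 in HOXB13ko and 3.80, 5.30 and 4.55 in HOXB13ko-LV-MEIS1. CHAC1, which degrades glutathione, had the widest SE of the 40; all 6 HOXB13ko-labelled libraries lay above all 6 others, although Control replicate 1 was well below the other Control libraries. On the log2 scale, the difference was 0.72 ± 0.22, adjusted p = 0.0235 in HOXB13ko and -0.077 ± 0.22, adjusted p = 0.806 in LV-MEIS1, each against Control, and 0.83 ± 0.22, adjusted p = 0.00653 between the lines with MEIS1. The HOXB13ko call was lost without Control replicate 1 or HOXB13ko replicate 1 or 2 (up to 0.0799), and without Control replicate 1 the log2 fold change was 0.42.

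VLDLR stood at 4.61, 5.03 and 5.29 CPM in Control, 7.04, 8.05 and 7.60 in LV-MEIS1, 5.72, 5.34 and 5.85 in HOXB13ko and 4.22, 6.62 and 5.72 in HOXB13ko-LV-MEIS1. VLDLR, a lipoprotein receptor induced through ATF4 in stressed liver cells, was instead highest in LV-MEIS1 without overlap. The fitted log2 difference was 0.56 ± 0.14, adjusted p = 0.0039 in LV-MEIS1 and 0.17 ± 0.14, adjusted p = 0.363 in HOXB13ko, each against Control, and -0.44 ± 0.14, adjusted p = 0.0139 between the lines with MEIS1. The last call was lost without LV-MEIS1 replicate 2 or HOXB13ko-LV-MEIS1 replicate 1 (up to 0.0734). SESN2, a leucine sensor upstream of mTORC1, ranged from 19.4 to 28.6 CPM and rose in HOXB13ko against Control (0.27 ± 0.089, adjusted p = 0.0291), against 0.22 ± 0.089, adjusted p = 0.0551 between the lines with MEIS1, and the difference of the 2 did not pass (adjusted p = 0.75). The call in HOXB13ko was lost without Control replicate 1 or 3 or HOXB13ko replicate 2 or 3 (up to 0.094).

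Both eIF2 alpha kinases among the 40 rose in the libraries labelled HOXB13ko. EIF2AK3 ranged from 22.5 to 25.4 CPM in Control and from 29.98 to 30.9 in HOXB13ko, with a log2 fold change of 0.37 ± 0.071, adjusted p = 0.00141. EIF2AK4 ranged from 112 to 116 CPM in Control and from 134 to 138 in HOXB13ko (0.25 ± 0.043, adjusted p = 0.000569). Neither kinase overlapped between the groups. Both also rose between the lines with MEIS1, EIF2AK3 by 0.22 and EIF2AK4 by 0.28; the EIF2AK3 call was lost without LV-MEIS1 replicate 1 or HOXB13ko-LV-MEIS1 replicate 1 (adjusted p of up to 0.0864).

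PPP1R15A, or GADD34, the phosphatase subunit that reverses eIF2 alpha phosphorylation, was highest in LV-MEIS1, at 27.4 to 27.8 CPM against 23.8 to 24.9 in Control and 20.9 to 24.5 in the 6 HOXB13ko-labelled libraries. In log2 units it differed by 0.17 ± 0.067, adjusted p = 0.0475 in LV-MEIS1 against Control, a call lost without any of 10 of the 12 libraries (up to 0.106; kept without HOXB13ko-LV-MEIS1 replicate 1 or 2). It fell by 0.28 between the lines with MEIS1 (adjusted p = 0.00314).

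In serine synthesis the 3 enzymes of the pathway did not pass in the same comparisons, and no test compared them with each other. PHGDH, the first enzyme, ranged from 20.8 to 36.9 CPM, overlapped between every pair of groups and passed in no comparison (log2 fold changes 0.063, 0.15, 0.20 and 0.28, SE 0.18). PSAT1 stood at 126, 123 and 119 CPM in Control, 129, 115 and 112 in LV-MEIS1, 145, 150.3 and 152 in HOXB13ko and 159.7, 148 and 174 in HOXB13ko-LV-MEIS1. For PSAT1, the second enzyme, LV-MEIS1 overlapped Control, and all 6 HOXB13ko-labelled libraries lay above all 6 others. In the fit, the log2 fold change was 0.28 ± 0.064, adjusted p = 0.00449 in HOXB13ko against Control and 0.44 ± 0.064, adjusted p = 5.89e-05 between the lines with MEIS1.

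PSPH stood at 42.2, 43.9 and 41.4 CPM in Control, 29.0, 27.0 and 27.1 in LV-MEIS1, 48.8, 45.5 and 47.3 in HOXB13ko and 49.4, 44.9 and 49.5 in HOXB13ko-LV-MEIS1. PSPH, the last enzyme, was instead low in LV-MEIS1, where the highest library lay well below the lowest of the other 9, and its HOXB13ko libraries lay slightly above Control. Limma gave a log2 fold change of -0.61 ± 0.060, adjusted p = 1.66e-06 in LV-MEIS1 (1.52-fold lower) and 0.15 ± 0.060, adjusted p = 0.0649 in HOXB13ko, each against Control. Between the lines with MEIS1 it was 0.78 ± 0.060, adjusted p = 7.06e-08, or 1.72-fold, and beyond 1.5-fold.

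ALDH1L2 stood at 119.8, 102 and 104 CPM in Control, 68.0, 74.4 and 71.2 in LV-MEIS1, 130.3, 139 and 152 in HOXB13ko and 139, 146 and 131 in HOXB13ko-LV-MEIS1. ALDH1L2, the mitochondrial 10-formyltetrahydrofolate dehydrogenase, separated into LV-MEIS1 lowest, Control between and all 6 HOXB13ko-labelled libraries highest. On the log2 scale, the difference was -0.60 ± 0.072, adjusted p = 1.14e-05 in LV-MEIS1, 0.37 ± 0.072, adjusted p = 0.00156 in HOXB13ko, each against Control, and 0.96 ± 0.072, adjusted p = 5.46e-08 between the lines with MEIS1, or 1.94-fold and beyond 1.5-fold.

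MTHFD2 stood at 135, 137 and 133 CPM in Control, 135, 127 and 115 in LV-MEIS1, 177, 177 and 184 in HOXB13ko and 195, 191 and 203 in HOXB13ko-LV-MEIS1. MTHFD2, the mitochondrial methylenetetrahydrofolate dehydrogenase, was near the Control level in LV-MEIS1 and higher in all 6 HOXB13ko-labelled libraries. The fitted log2 difference was -0.11 ± 0.054, adjusted p = 0.113 in LV-MEIS1, 0.40 ± 0.054, adjusted p = 8.45e-05 in HOXB13ko, each against Control, and 0.65 ± 0.054, adjusted p = 2.05e-07 between the lines with MEIS1.

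SHMT2 stood at 275, 327 and 288 CPM in Control, 251, 228 and 251 in LV-MEIS1, 261, 248 and 239 in HOXB13ko and 257, 271 and 283 in HOXB13ko-LV-MEIS1. SHMT2, which splits serine to glycine in mitochondria, was lower than Control in both LV-MEIS1 and HOXB13ko without overlap, and these 2 groups overlapped each other. In log2 units it differed by -0.28 ± 0.066, adjusted p = 0.00297 in LV-MEIS1, -0.25 ± 0.066, adjusted p = 0.0109 in HOXB13ko, each against Control, and 0.15 ± 0.066, adjusted p = 0.0646 between the lines with MEIS1. The HOXB13ko call was lost without Control replicate 2 or HOXB13ko replicate 3 (up to 0.0543).

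MTHFD1L stood at 24.0, 23.5 and 22.1 CPM in Control, 26.2, 25.3 and 23.7 in LV-MEIS1, 18.1, 19.4 and 17.1 in HOXB13ko and 18.5, 18.3 and 19.2 in HOXB13ko-LV-MEIS1. MTHFD1L, the mitochondrial formate-producing synthetase, was lower in all 6 HOXB13ko-labelled libraries than in all 6 others. In the fit, the log2 fold change was 0.11 ± 0.071, adjusted p = 0.216 in LV-MEIS1 and -0.34 ± 0.071, adjusted p = 0.00258 in HOXB13ko, each against Control, and -0.42 ± 0.071, adjusted p = 0.000209 between the lines with MEIS1. Exons of ALDH1L2, MTHFD2 and SHMT2 overlap those of WASHC4, SLC4A5 and NDUFA4L2 on the other strand, and strand was not used in assigning reads.

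Among the remaining amino acid enzymes, asparagine synthetase and the proline enzymes all rose between the lines with MEIS1 but passed in different comparisons against Control. ASNS stood at 90.4, 94.0 and 93.1 CPM in Control, 94.1, 89.7 and 83.3 in LV-MEIS1, 117, 119 and 114 in HOXB13ko and 122, 117 and 127 in HOXB13ko-LV-MEIS1. LV-MEIS1 overlapped Control for ASNS, and all 6 HOXB13ko-labelled libraries lay above all 6 others. Limma gave a log2 fold change of 0.33 ± 0.053, adjusted p = 0.000345 in HOXB13ko and -0.057 ± 0.053, adjusted p = 0.407 in LV-MEIS1, each against Control, and 0.46 ± 0.053, adjusted p = 5.43e-06 between the lines with MEIS1.

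PYCR1 stood at 133, 166 and 137 CPM in Control, 109, 93.7 and 110.2 in LV-MEIS1, 151, 148 and 128 in HOXB13ko and 133, 150.0 and 160.2 in HOXB13ko-LV-MEIS1. PYCR1, the last step of mitochondrial proline synthesis, was low in LV-MEIS1 without overlap, and the other groups overlapped. On the log2 scale, the difference was -0.47 ± 0.096, adjusted p = 0.00117 in LV-MEIS1 and -0.024 ± 0.096, adjusted p = 0.871 in HOXB13ko, each against Control, and 0.50 ± 0.096, adjusted p = 0.000546 between the lines with MEIS1. ALDH18A1, the first committed step to proline, fell by 0.20 in LV-MEIS1 against Control (adjusted p = 0.0109; 0.0538 without LV-MEIS1 replicate 2) and rose by 0.31 between the lines with MEIS1. GPT2, the mitochondrial alanine aminotransferase, ranged from 53.2 to 60.3 CPM and passed in no comparison.

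**Figure D3:**
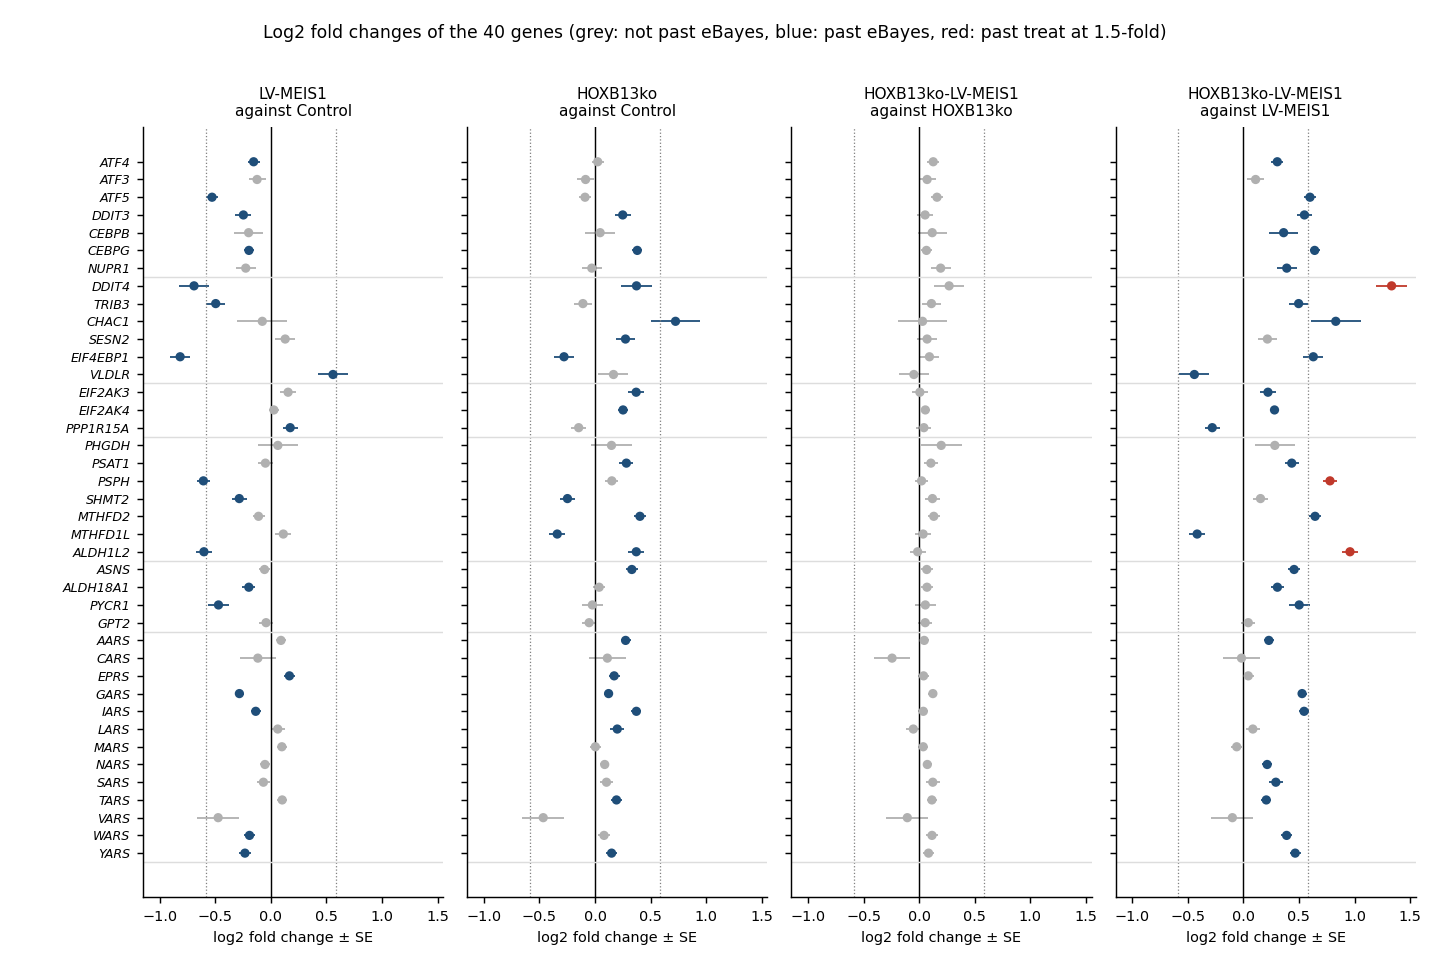
Log2 fold change ± SE (horizontal axis) of each of the 40 genes (rows, by role) in the 4 comparisons; grey points did not pass limma's test, blue points did, red points also passed treat, and dotted lines mark 1.5-fold. Blue points lie mostly left of 0 for LV-MEIS1 (16 of 19), mostly right of 0 for HOXB13ko (18 of 21), are missing in the third panel, and DDIT4, PSPH and ALDH1L2 are red in the fourth.

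The cytosolic aminoacyl-tRNA synthetases, which join each amino acid to its tRNA, mostly moved by small amounts with small errors, CARS and VARS having the widest SE among them. IARS stood at 293, 269 and 272 CPM in Control, 253, 253 and 252 in LV-MEIS1, 352, 364 and 363 in HOXB13ko and 375, 357 and 374 in HOXB13ko-LV-MEIS1. For IARS, the isoleucine enzyme, LV-MEIS1 lay below Control and all 6 HOXB13ko-labelled libraries above it, without overlap. The fitted log2 difference was -0.14 ± 0.045, adjusted p = 0.0241 in LV-MEIS1, 0.37 ± 0.045, adjusted p = 3.34e-05 in HOXB13ko, each against Control, and 0.55 ± 0.045, adjusted p = 1.7e-07 between the lines with MEIS1. The LV-MEIS1 call was lost without Control replicate 1 or LV-MEIS1 replicate 2 or 3 (up to 0.0896).

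GARS stood at 163, 161 and 162 CPM in Control, 135, 133 and 132 in LV-MEIS1, 179, 171 and 179 in HOXB13ko and 189, 195 and 193 in HOXB13ko-LV-MEIS1. GARS, the glycine enzyme, stood in 4 groups without overlap, in the order LV-MEIS1, Control, HOXB13ko, HOXB13ko-LV-MEIS1. In log2 units it differed by -0.28 ± 0.041, adjusted p = 7.05e-05 in LV-MEIS1, 0.12 ± 0.041, adjusted p = 0.0346 in HOXB13ko, each against Control, and 0.53 ± 0.041, adjusted p = 8.3e-08 between the lines with MEIS1. The HOXB13ko call was lost without Control replicate 2 or 3 or HOXB13ko replicate 1 or 3 (up to 0.119). The last step, HOXB13ko-LV-MEIS1 against HOXB13ko, was 0.12 ± 0.041, adjusted p = 0.205 and did not pass.

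YARS stood at 107, 118 and 112 CPM in Control, 97.4, 93.7 and 94.9 in LV-MEIS1, 123, 122 and 128 in HOXB13ko and 129, 127 and 139 in HOXB13ko-LV-MEIS1. YARS, the tyrosine enzyme, had the same order of groups, although its HOXB13ko and HOXB13ko-LV-MEIS1 libraries overlapped. In the fit, the log2 fold change was -0.23 ± 0.051, adjusted p = 0.00203 in LV-MEIS1, 0.15 ± 0.051, adjusted p = 0.0365 in HOXB13ko, each against Control, and 0.47 ± 0.051, adjusted p = 3.15e-06 between the lines with MEIS1. The HOXB13ko call was lost without Control replicate 1 or 3 or any HOXB13ko library (up to 0.129).

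Of the other 10 synthetases, WARS fell in LV-MEIS1 against Control (-0.19 ± 0.051, adjusted p = 0.00744) and EPRS rose (0.17 ± 0.049, adjusted p = 0.0124; lost without Control replicate 2 or LV-MEIS1 replicate 2, up to 0.0529). AARS, EPRS, LARS and TARS rose in the libraries labelled HOXB13ko against Control, AARS the most (0.28 ± 0.045, adjusted p = 0.000465) and EPRS the least (0.17 ± 0.049, adjusted p = 0.0156). The EPRS call was lost without Control replicate 2 or HOXB13ko replicate 3 (up to 0.0754) and the LARS call without Control replicate 2 or HOXB13ko replicate 2 or 3 (up to 0.112). Between the lines with MEIS1, AARS, NARS, SARS, TARS and WARS rose, by 0.21 for TARS up to 0.39 for WARS. MARS, CARS and VARS passed in no comparison. VARS had the second widest SE of the 40: Control replicate 3 stood at 172 CPM and the other 11 libraries between 66.1 and 103 CPM. AARS, MARS, WARS and YARS share exon positions on opposite strands with DDX19B, DDIT3, WDR25 and S100PBP.

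The comparison of HOXB13ko with Control and that of HOXB13ko-LV-MEIS1 with LV-MEIS1 share no library, although both HOXB13ko-labelled groups come from the same pool. Of the 40 genes, 15 rose in both (37.5%, against 8.01% of all genes), 1 fell in both (MTHFD1L; 2.5%, against 7.96%) and 1 fell in the first and rose in the second (EIF4EBP1). Over all 13951 genes, 530 passed in opposite directions in the 2 comparisons. The sign was shared by 29 of 40 (72.5%), against 60% of all genes. The 15 were DDIT3, CEBPG, DDIT4, CHAC1, EIF2AK3, EIF2AK4, PSAT1, MTHFD2, ALDH1L2, ASNS, AARS, GARS, IARS, TARS and YARS. A further 12 passed as higher in the second comparison and not in the first, among them ATF4, ATF5, TRIB3, EIF4EBP1, PSPH and PYCR1, and 3, SESN2, EPRS and LARS, in the first and not in the second. For these 3 the difference between the comparisons did not pass (adjusted p = 0.75, 0.166 and 0.336). Of all genes, 24.0% rose in the second comparison and 16.5% in the first, each counted with or without the other.

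The effect of MEIS1 in the cells with no HOXB13 guide was set against its effect in the libraries labelled HOXB13ko as an interaction in the same fit (LV-MEIS1 against Control minus HOXB13ko-LV-MEIS1 against HOXB13ko), which is the same number as HOXB13ko against Control minus HOXB13ko-LV-MEIS1 against LV-MEIS1. This difference was below 0 for 18 of the 40 genes by limma's test and above 0 for 1, against 16.2% and 18.0% of all genes, with a median of -0.19 against 0.017. Cas9 and other differences between the lines cannot be told apart from MEIS1 in this difference. It was lowest for DDIT4 (-0.96 ± 0.19, adjusted p = 0.00188) and EIF4EBP1 (-0.91 ± 0.13, adjusted p = 0.000107), followed by ATF5, PSPH, TRIB3, ALDH1L2 and PYCR1. VLDLR was the 1 gene above 0 (0.61 ± 0.19, adjusted p = 0.0248), and its call was lost without LV-MEIS1 replicate 2 or HOXB13ko replicate 3 (up to 0.0594). ATF4 differed by -0.28 ± 0.077, adjusted p = 0.0124. For ASNS (-0.13 ± 0.074, adjusted p = 0.209), PSAT1 (-0.15 ± 0.091, adjusted p = 0.205) and CHAC1 (-0.11 ± 0.32, adjusted p = 0.817) the difference did not pass, and none of the 40 passed treat (2 at an unadjusted p under 0.05), against 1.31% of all genes above 0 and 1.62% below.

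Other genes of the pathway were taken from 9 further lists. Their counts stand against the shares of all genes: 16.5% rose and 16.4% fell in HOXB13ko against Control, 23.2% and 21.3% in LV-MEIS1 against Control. Between the lines with MEIS1 these were 24.0% and 26.1%. The endoplasmic reticulum chaperones and genes of the ATF6 and XBP1 arms, the branches of the unfolded protein response that run beside PERK, rose in most cases in the HOXB13ko-labelled libraries: of 23 listed, 20 rose and 0 fell in the libraries labelled HOXB13ko against Control (21 at an unadjusted p under 0.05), 22 rose and 1 fell between the lines with MEIS1, and 11 fell and 4 rose in LV-MEIS1 against Control. Their median log2 fold changes were 0.35, 0.60 and -0.15. HSPA5 stood at 1694, 1809 and 1725 CPM in Control, 1355, 1294 and 1276 in LV-MEIS1, 2421, 2405 and 2440.0 in HOXB13ko and 2574, 2609 and 2725 in HOXB13ko-LV-MEIS1. HSPA5, the chaperone BiP, thus formed 4 groups without overlap, although HOXB13ko-LV-MEIS1 against HOXB13ko did not pass. SEL1L, a subunit of the ER degradation complex, lay beyond 1.5-fold in HOXB13ko against Control (0.88 ± 0.067, adjusted p = 3.46e-07). Between the lines with MEIS1, 8 did so: HSPA5 (1.01 ± 0.051), MANF (1.12 ± 0.068), HERPUD1 (0.99 ± 0.053), PDIA4 (0.85 ± 0.054), HYOU1 (0.78 ± 0.054), DNAJC3 (0.76 ± 0.054), PDIA6 (0.75 ± 0.046) and DNAJB11 (0.74 ± 0.046), all chaperones, folding enzymes or degradation factors of the ER. In LV-MEIS1 against Control, ERN1, the kinase IRE1, rose by 0.75, the most of the 23, while MANF fell by 0.71, the most of those that fell. ERN1 was not the only gene higher there. XBP1, DNAJB9 and EDEM1 also lay above Control without overlap, with means of 149.3, 18.09 and 53.06 CPM in Control and 172.1, 24.75 and 65.98 in LV-MEIS1.

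Of the synthetases outside the 40, part fell in LV-MEIS1 and none passed as higher in the libraries labelled HOXB13ko. Of 11 other cytosolic synthetases and complex subunits, 7 fell and 0 rose in LV-MEIS1 against Control (63.6% lower, against 21.3% of all genes), 0 rose and 1, QARS, fell in HOXB13ko against Control (2 at an unadjusted p under 0.05), and 8 rose and 0 fell between the lines with MEIS1. FARSA, a phenylalanine synthetase subunit, and TARSL2 had the largest changes in LV-MEIS1 (-0.45 ± 0.063 and -0.42 ± 0.12). Of 17 mitochondrial synthetases the counts were 7 fallen, 1 fallen and 7 risen in the same 3 comparisons, with no gene passing in the other direction (41.2% lower in LV-MEIS1). YARS2 and MARS2 fell most in LV-MEIS1 (-0.44 ± 0.073 and -0.37 ± 0.066), and the 1 that fell in HOXB13ko was SARS2 (-0.22 ± 0.069). The TGATGNAA core was in 0 of 9 promoters of the other cytosolic and 1 of 14 of the mitochondrial synthetases (7.14%), against 6 of 10 for the synthetases among the 40 (60%).

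Amino acid transporters linked to ATF4 held the largest single fold changes of these lists. SLC7A5, the LAT1 leucine transporter, stood at 199 to 236 CPM in Control, 48.2 to 57.5 in LV-MEIS1, 1599 to 1853 in HOXB13ko and 1706 to 1979 in HOXB13ko-LV-MEIS1, with log2 fold changes of -2.02 ± 0.081 in LV-MEIS1 and 3.001 ± 0.081 in HOXB13ko against Control, both beyond 1.5-fold, as were that between the lines with MEIS1 (5.10 ± 0.081) and the difference of the MEIS1 effects (-2.09 ± 0.12). SLC3A2 stood at 78.8, 87.3 and 78.7 CPM in Control, 57.3, 56.0 and 59.7 in LV-MEIS1, 328, 307 and 294 in HOXB13ko and 308, 293 and 350.4 in HOXB13ko-LV-MEIS1. SLC3A2, the heavy chain that carries LAT1 to the membrane, was likewise beyond 1.5-fold in HOXB13ko (1.92 ± 0.068) and between the lines with MEIS1 (2.45 ± 0.068). Of all 10 transporters, 7 rose and 0 fell in HOXB13ko against Control (9 at an unadjusted p under 0.05 in either direction), against 16.5% and 16.4% of all genes. In LV-MEIS1 against Control, 4 fell and 3 rose, against 21.3% and 23.2%.

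The remaining lists moved in both directions. In HOXB13ko against Control, the lists of folate, eIF2 and mitochondrial proteostasis genes given below had 5% to 11.1% of genes risen or fallen. These lay under the 16.5% and 16.4% of all genes. Of 13 other ATF4-linked stress genes, 6 rose and 3 fell in HOXB13ko against Control, 4 rose and 2 fell in LV-MEIS1 against Control, and 4 rose and 5 fell between the lines with MEIS1, where STC2 (0.98 ± 0.075) and GDF15 (0.99 ± 0.11), secreted stress proteins, lay beyond 1.5-fold higher and GADD45A (-0.94 ± 0.084) and SQSTM1 (-0.96 ± 0.080) beyond it lower. KLHL24 and GADD45A led in LV-MEIS1 (0.79 ± 0.084 and 0.73 ± 0.084) and SQSTM1 and GDF15 in HOXB13ko (-0.73 ± 0.080 and 0.69 ± 0.11). In the same order of comparisons, 20 other folate, glycine and transsulfuration enzymes had 2 risen and 1 fallen, 3 and 6, and 8 and 2. GLDC of the glycine cleavage system changed most there, falling in LV-MEIS1 against Control (-0.87 ± 0.23, adjusted p = 0.00793), followed by MTHFS (-0.77 ± 0.17). The 13 other enzymes of nonessential amino acids had 3 risen and 3 fallen, 3 and 7, and 3 and 2. OAT and PYCR3 led in LV-MEIS1 (0.61 ± 0.064 and -0.57 ± 0.10), and glutamine synthetase GLUL lay beyond 1.5-fold between the lines with MEIS1 (0.95 ± 0.046). The 12 genes of eIF2, eIF2B and related kinases had 1 and 1, 1 and 5, and 6 and 2, with EIF2B1 highest between the lines with MEIS1 (0.60 ± 0.051). The 9 mitochondrial proteostasis genes had 1 and 1, 0 and 4, and 6 and 0, with LONP1 the highest there (0.45 ± 0.074). In HOXB13ko-LV-MEIS1 against HOXB13ko, 0 genes of these 9 lists passed limma's test (0 to 9 per list at an unadjusted p under 0.05, against 2070 of all 13951 genes).

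**Figure D4:**
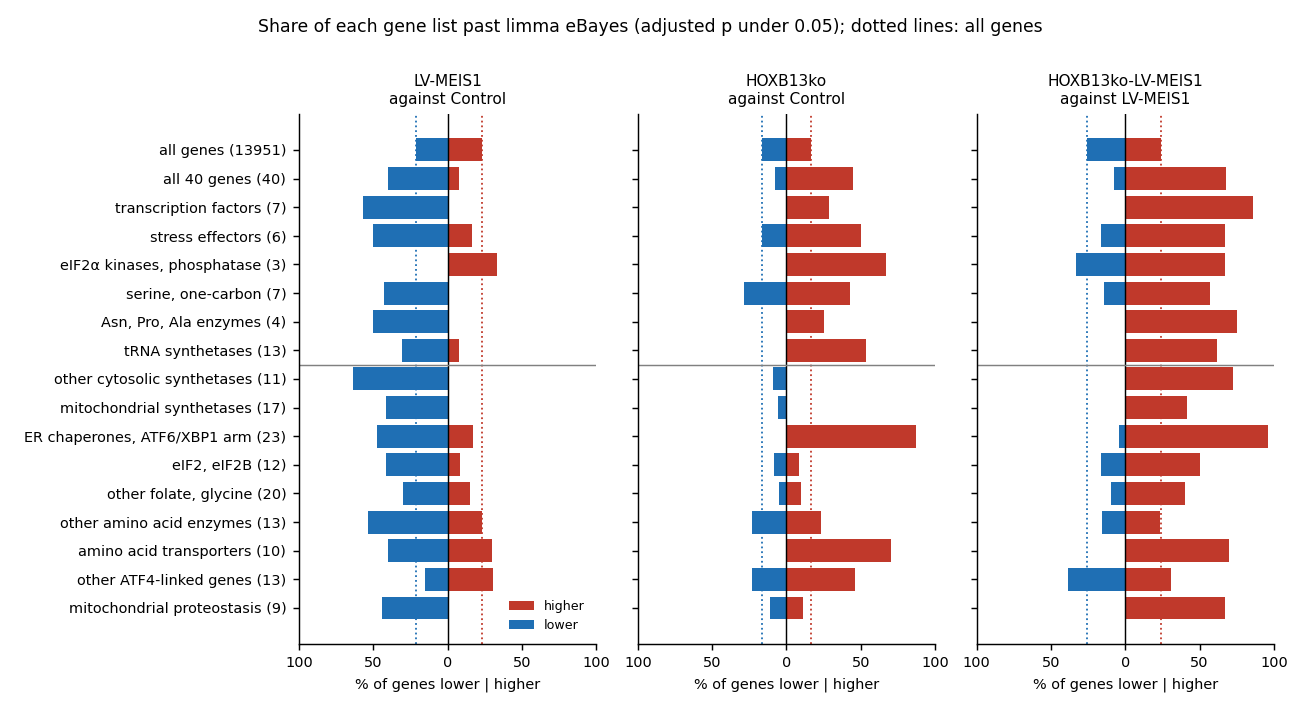
Percent of the genes of each list (number listed in brackets) that rose (red, to the right) or fell (blue, to the left) by limma's test in 3 comparisons, with dotted lines at the percent over all 13951 genes. The 40 genes lie to the left in LV-MEIS1 (40% lower) and to the right in the other panels (45% and 67.5% higher); ER chaperones reach 20 of 23 and 22 of 23 higher there, and the other synthetases are red only in the last panel.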

How the data were processed

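The 12 RNA-seq libraries of CWR22Rv1 derivatives, 3 per group, were analysed from 1 table per group, with groups and replicate numbers taken from the labels. The deposited values are CPM. According to the labels and the study's methods, the authors made them from 50-base single-end reads of a stranded poly-A kit, trimmed with Trimmomatic 0.38, assigned to Ensembl GRCh38 transcripts with kallisto 0.43.1, summed to genes with tximport, filtered on low counts and scaled in edgeR 3.22.2. Strand was not used, so opposite-strand overlaps are uncertain, as are near-identical copies. Each table held 13993 rows; 42 exact repeats were removed, leaving 13951 genes. Low values were close to whole multiples of a smallest step in only 28.1% to 54.4% of cases (within 0.05 of 1 read, values below 1 CPM), so reads were not recovered and no count model was used. Depth estimates from that step cover counting error only.

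With limma 3.58.1 in R 4.3.3, log2(CPM + 0.5) was fitted with 1 mean per group over all 12 libraries and a trended prior. The moderated test and treat at 1.5-fold were adjusted by the Benjamini-Hochberg method over all genes at 0.05, and intervals are 95%. The fit was tested on simulated data with 200 changed genes. All 40 genes are accounted for. Values in every library are given for ATF4 and for genes that passed treat, or passed the moderated test with an absolute log2 fold change of at least 0.4, in any comparison; of the other lists, genes past treat or otherwise the 2 with the largest change in a comparison served as examples, and HSPA5 and SLC3A2 were given in every library after their values were seen. Alternatives covered the pseudocount, a filter on low values, scaling, the prior, the threshold, the fit's samples, a replicate block and leaving out each library. The genes and lists were chosen with earlier results of these data known. FGF21 and INHBE, on the list of other stress genes, were not listed in the tables. Positions come from GENCODE and promoters from RefSeq, and 10 of the 40 genes had no promoter there: NUPR1, EIF4EBP1, PSPH, SHMT2, ALDH1L2, PYCR1, GPT2, LARS, VARS and YARS.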

Additional observations from a re-analysis of the deposited data

Results flagged for a closer look

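The effect of MEIS1 differed between cells with no HOXB13 guide and the libraries labelled HOXB13ko for 19 of the 40 genes by limma's interaction test (adjusted p under 0.05). Of these, 18 lay below 0 and 1 above, against 16.2% and 18.0% of all genes. Other differences between the lines, such as Cas9, which the LV-MEIS1 label does not name, cloning or the vector, cannot be told apart from MEIS1 here. The values are the log2 fold change of LV-MEIS1 against Control minus that of HOXB13ko-LV-MEIS1 against HOXB13ko. Among the factors the difference was -0.69 for ATF5, -0.42 for NUPR1, -0.3 for DDIT3, -0.28 for ATF4 and -0.26 for CEBPG. Among the effectors it was -0.96 for DDIT4, -0.91 for EIF4EBP1, -0.61 for TRIB3 and 0.61 for VLDLR. Among the metabolic enzymes it was -0.63 for PSPH, -0.59 for ALDH1L2, -0.53 for PYCR1, -0.4 for SHMT2, -0.27 for ALDH18A1 and -0.24 for MTHFD2. Among the synthetases it was -0.41 for GARS, -0.32 for YARS, -0.31 for WARS and -0.17 for IARS.

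Of these calls 6 did not hold when each library was left out in turn, while their sign held. The ranges that follow are of the log2 difference over the 12 omissions. IARS was lost without any of 10 libraries (-0.20 to -0.14, adjusted p of up to 0.0997; kept without Control replicate 2 or HOXB13ko-LV-MEIS1 replicate 2), and DDIT3 without any of 8 (-0.36 to -0.26, up to 0.0789; kept without Control replicate 1, LV-MEIS1 replicate 2, HOXB13ko replicate 3 or HOXB13ko-LV-MEIS1 replicate 3). NUPR1 was lost without Control replicate 2 or 3, LV-MEIS1 replicate 2, HOXB13ko replicate 3 or HOXB13ko-LV-MEIS1 replicate 2 (-0.52 to -0.35, up to 0.056), and MTHFD2 without Control replicate 2, LV-MEIS1 replicate 3, HOXB13ko replicate 1 or 2 or HOXB13ko-LV-MEIS1 replicate 3 (-0.29 to -0.18, up to 0.0645). VLDLR was lost without LV-MEIS1 replicate 2 or HOXB13ko replicate 3 (0.44 to 0.74, up to 0.0594), and ALDH18A1 without LV-MEIS1 replicate 2 or HOXB13ko-LV-MEIS1 replicate 3 (-0.31 to -0.22, up to 0.0535). MEIS1 mRNA was lower in HOXB13ko-LV-MEIS1 (29.4 to 30.1 CPM) than in LV-MEIS1 (45.8 to 49.6 CPM), and the part of that difference in these results was not tested.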

How the results depend on the processing

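Across all alternatives, the 40 genes in 5 comparisons gave 4360 values, of which 4175 kept their side of the threshold, 160 lost the call, 25 gained it and 0 called values changed sign; sign changes where neither fit passed are not counted. A stricter threshold, an adjusted p of 0.01, left 1 gene risen for LV-MEIS1 against Control in place of 3, 10 risen and 1 fallen for HOXB13ko in place of 18 and 3, and 0 above 0 in the difference of the MEIS1 effects in place of 1. A 1.5-fold limit applied after the moderated test, a looser rule than treat, gave 4 genes in LV-MEIS1 and 1 in HOXB13ko, each against Control, and 7 in the difference, all in place of 0, and 8 between the lines with MEIS1 in place of 3. Under the stricter threshold and this looser rule the shares of all genes were not counted, so these counts have no background beside them. Leaving out each library gave 1 to 3 risen and 13 to 17 fallen for LV-MEIS1 and 11 to 18 and 1 to 4 for HOXB13ko, each against Control, 0 to 0 when MEIS1 was added to HOXB13ko, 26 to 29 and 2 to 3 (2 to 3 beyond 1.5-fold) between the lines with MEIS1, and 0 to 1 above and 15 to 18 below 0 in the difference; where that left 2 libraries in a group, its spread came from the whole fit. The 1 gene above 0 in the difference was lost without LV-MEIS1 replicate 2 or HOXB13ko replicate 3. Under the other scalings the all-gene median (log2) lay between -0.0533 and 0.0551.

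Same-numbered libraries did not deviate together (correlations of deviations from -0.297 to 0.227, over 0.1 in 2 of 18 pairs, and 0 libraries correlated best with their own number throughout), so they share only a number. With a replicate block the counts of risen and fallen genes were 2 and 15 for LV-MEIS1 and 15 and 2 for HOXB13ko, each against Control, 0 and 0 when MEIS1 was added to HOXB13ko, 26 and 3 between the lines with MEIS1 and 1 and 17 in the difference; 8 calls were lost and 0 gained. Precision is limited by 3 libraries per group: CHAC1, at 1.45 to 5.30 CPM, had the widest SE, 0.22.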
